A study of Mus musculus with 12 samples.

Results

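The genes described here are 39 genes of endothelial cells and of blood vessel growth: the VEGF receptors, the angiopoietin system, surface and junction markers, genes of glomerular and fenestrated endothelium, transcription factors, vasoactive peptide systems and adhesion molecules. They were found as the probe sets of the deposited array table whose annotated symbol is one of the 39, which gave 69 of 45101 probe sets. Of these genes, 35 passed the filter on low signals and were tested among 12385 genes. The signals come from renal cortex of mice on Affymetrix Mouse Genome 430 2.0 arrays, with 12 arrays in 4 groups of 3. ICGN mice are a strain derived from ICR stock that carries a mutation of Tns2, and the labels give their phenotype as nephrotic syndrome. ICR mice are labelled as normal. The groups are ICGN cortex at 4 weeks, ICR cortex at 4 weeks, ICGN cortex at 8 weeks and ICR cortex at 8 weeks, and no treatment is named for any of them. ICGN and ICR are separate strains, so the mutation and any other difference between the strains cannot be told apart. How many mice went into each replicate is not stated, so p-values describe the spread among the samples at hand.

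Endothelial cells line the vessels of the kidney. In the glomerulus they form a fenestrated capillary wall that is kept up by VEGF-A from the neighbouring podocytes, which acts through the receptor Kdr, while Flt1 binds the same ligand with weaker signalling. Angiopoietins act on the receptor Tek, whose activity is tuned by Tie1 and by the phosphatase Ptprb. In whole cortex, fewer endothelial cells and less RNA per endothelial cell cannot be told apart.

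Every array was scaled to 1 common median, because the authors' table had the 4-week arrays at a trimmed mean of 100 and the 8-week arrays at 500. Signals below are these scaled values, and levels of different genes are not compared, since each probe set has its own brightness. Log2 fold changes are ICGN over ICR, or 8 weeks over 4 weeks, of log2(signal + 11), given relative to the median tested gene with the standard error of the fit. A gene was called at a limma adjusted p of 0.05 or less over all tested genes. Before that subtraction the median tested gene stood at -0.02 for the strains at 4 weeks and at -0.18 at 8 weeks, so the test itself was made on values lower by this shift. Pecam1, Cdh5 and 31 more of the 35 tested genes exceeded the array median in all 12 arrays. Edn1 did so in 8 arrays, all 3 ICGN arrays and 1 of 3 ICR arrays at each age, and Mcam in 11. In ICR cortex Edn1 was thus mostly below the array median, and its passing of the filter on low signals rested on ICGN arrays.

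The 4 genes left untested were dim throughout. Selp and Sele, the selectins that catch rolling leukocytes, had signals of 0.158 to 36.5 and of 1.45 to 23.3 over their probe sets and all arrays. Vwf, the platelet-binding protein stored in endothelial granules, had 9.67 to 50.9, and Lyve1, the hyaluronan receptor of lymphatic vessels, had 5.16 to 51.9.

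In brief, 4 of the 35 tested genes differed between the strains at 4 weeks, all of them higher in ICGN. That is 11.4%, against 1.6% of all tested genes. The 4 include Edn1, whose passing of the filter on low signals rested on ICGN arrays. Without the filter 2 of 39 were called higher (5.13% against 0.792%), and Edn1 was not among them. At 8 weeks 20 were lower (57.1% against 26%) and 2 were higher (5.71% against 8.49%). The 20 include Kdr and Flt1, the glomerular endothelial gene Ehd3 and the markers Pecam1, Cdh5, Icam2 and Eng. The 2 that were higher are Edn1, which encodes the vasoconstrictor endothelin-1, and Icam1, which encodes an inducible ligand of leukocyte integrins. The genes were chosen with earlier results of these data known. Of 55 other tested endothelial genes 25.5% were lower at 8 weeks, near the 26% of all tested genes. In 7 of the 35 the strain difference at 8 weeks was more negative than that at 4 weeks by a test of the difference itself. They are 20% of the 35, against 5.68% of all tested genes, and Kdr had the largest difference.

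**Figure D1:**
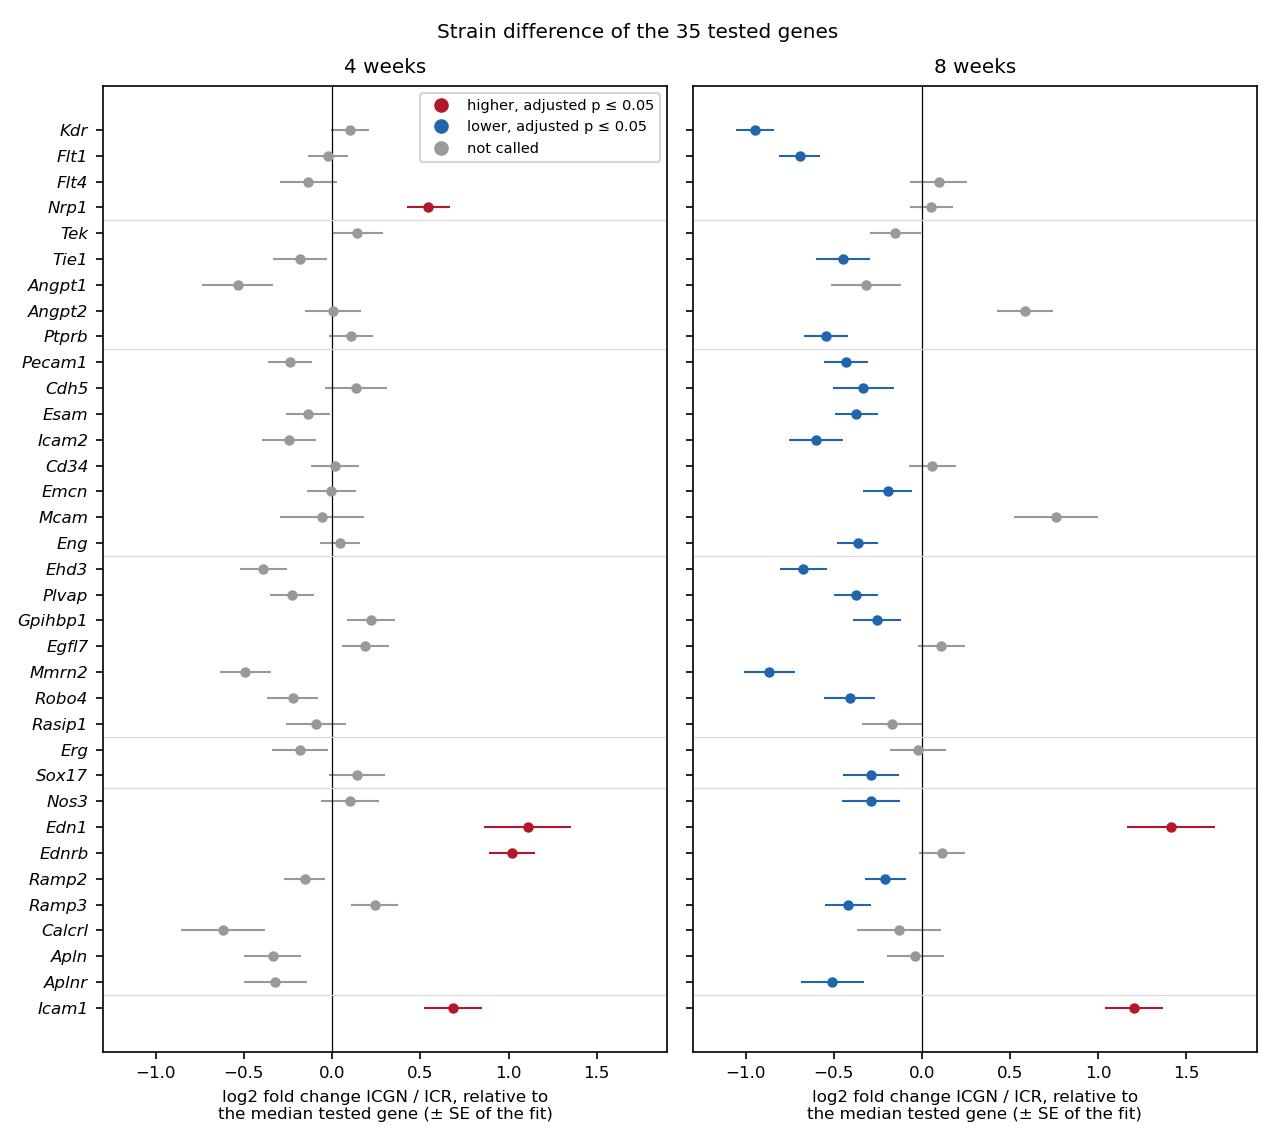
Log2 fold change of ICGN over ICR for the 35 tested genes at 4 weeks (left) and 8 weeks (right), relative to the median tested gene, with the standard error of the fit as bars and gene groups parted by lines. At 4 weeks the 4 called genes lie to the right of 0, while at 8 weeks 20 called genes lie to the left and 2 to the right.

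The strain comparison at 4 weeks showed differences in 4 genes. Ednrb, a receptor for endothelins that is found on endothelium and on collecting duct cells, had signals of 1417, 1186 and 1322 in ICGN cortex, against 586, 697 and 661 in ICR cortex. The ICGN arrays all lay above the ICR arrays, and the log2 fold change was 1.02 ± 0.13, adjusted p = 7.7e-04. All 3 tested probe sets of Ednrb were called higher. The endothelin-1 gene Edn1 had signals of 82.9, 84.1 and 89.8 in ICGN cortex, against 48.9, 24.3 and 33.2 in ICR cortex. These groups did not overlap either, with a log2 fold change of 1.11 ± 0.25, adjusted p = 0.025.

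Icam1 had signals of 283, 311 and 356 in ICGN cortex, against 226, 186 and 174 in ICR cortex, a log2 fold change of 0.69 ± 0.17, adjusted p = 0.04. Nrp1, the co-receptor for VEGF-A and for class 3 semaphorins, had signals of 1426, 1409 and 1475 in ICGN cortex, against 889, 1079 and 1019.9 in ICR cortex, a log2 fold change of 0.55 ± 0.12, adjusted p = 0.027. In both genes each ICGN array exceeded each ICR array. The Nrp1 value comes from 1 of its 4 tested probe sets, the other 3 were not called, and the mean of the 4 stood at 0.24 (adjusted p = 0.33).

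These 4 genes are 11.4% of the 35 tested, set against 1.6% of all tested genes called higher at that age and 2.99% called in either direction. Edn1 is counted among them, although it passed the filter on low signals through its ICGN arrays. In the limma fit 0 members were called lower, against 1.39% of all tested genes, and 5 were lower at an unadjusted p under 0.05. The share of all tested genes at that unadjusted threshold was not counted. The remaining 31 lay between -0.62 for Calcrl and 0.24 for Ramp3, and the median of the 35 was -0.02. Mmrn2, Ehd3, Pecam1, Esam, Ramp2, Apln and Aplnr had all ICGN arrays below all ICR arrays without passing the test, which is 7 of 35 (20%) against 12% of all tested genes. Of these, Mmrn2 came nearest to the threshold (-0.49 ± 0.14, adjusted p = 0.073). Mmrn2 was called lower with arrays centred on their tested-gene median (adjusted p = 0.05), with only the 4-week arrays (0.03) and without ICR replicate 2 at 8 weeks (0.027), and Angpt1 was called lower without ICGN replicate 3 at 4 weeks (0.048). The call of Ednrb held under every alternative run, while that of Edn1 was lost on leaving out any 1 ICGN array of that age or ICR replicate 2 or 3 (adjusted p = 0.074 to 0.11), and that of Nrp1 on leaving out any 1 ICGN array or ICR replicate 1 or 3 (0.067 to 0.11). The call of Icam1 was lost without any 1 of the ICGN arrays at 4 weeks, ICR replicate 2 or 3 at 4 weeks, or ICGN replicate 1 at 8 weeks (0.054 to 0.14). With no filter on low signals Edn1 (adjusted p = 0.053) and Icam1 (0.073) were not called, nor was Icam1 with no mean-variance trend (0.071).

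At 8 weeks many of the 35 genes had a lower signal in ICGN cortex. This does not extend to endothelial genes in general. Of 55 other tested endothelial genes 25.5% were called lower, against 26% of all tested genes. The 20 genes called lower are 57.1% of the 35 tested, set against 26% of all tested genes called lower. The 2 called higher are 5.71%, set against 8.49%, and 34.5% of all tested genes were called in either direction. The median of the 35 was -0.29, and 20.4% of all tested genes lay below that value. In 20 genes every ICGN array lay below every ICR array, or 57.1% against 33.3% of all tested genes, and 18 of these were called. Emcn and Nos3 were called although their arrays overlapped.

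The receptors of VEGF were lower in 2 of 4 cases, against 26% of all tested genes. The counts of this and the following small groups were not tested against that share. Kdr, the main signalling receptor for VEGF-A, had signals of 281, 313 and 265 in ICGN cortex, against 592, 667 and 661 in ICR cortex. The ICGN arrays lay far below the ICR arrays with no overlap, and the log2 fold change was -0.95 ± 0.11, adjusted p = 6.2e-06, 1.93-fold lower in ICGN relative to the median gene. At 4 weeks the same probe set had read 320.2, 341 and 341 in ICGN cortex, against 300.1, 330.2 and 315 in ICR cortex, with overlapping groups (0.10 ± 0.11, adjusted p = 0.81).

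Flt1, the second VEGF-A receptor, had signals of 195, 192 and 204 in ICGN cortex, against 365, 352 and 398 in ICR cortex. The groups did not overlap, and the log2 fold change was -0.69 ± 0.11, adjusted p = 6.3e-05, or 1.62-fold lower. Of its 4 tested probe sets 2 were called lower and none higher. The values at 4 weeks were 231, 188 and 213 in ICGN cortex, against 227, 218 and 206 in ICR cortex, and there the groups overlapped (-0.02 ± 0.11, adjusted p = 0.92). Flt4, the receptor for VEGF-C that marks lymphatic and some fenestrated endothelium, was not called (0.10 ± 0.16, adjusted p = 0.7), with 139, 129 and 144 in ICGN cortex, against 118, 137 and 193 in ICR cortex. Nrp1 was not called at 8 weeks either (0.05 ± 0.12, adjusted p = 0.43), its arrays reading 1454, 1798 and 1837 in ICGN cortex, against 1720.3, 1820.5 and 2010.3 in ICR cortex. In both genes the ranges of the strains overlapped.

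**Figure D2:**
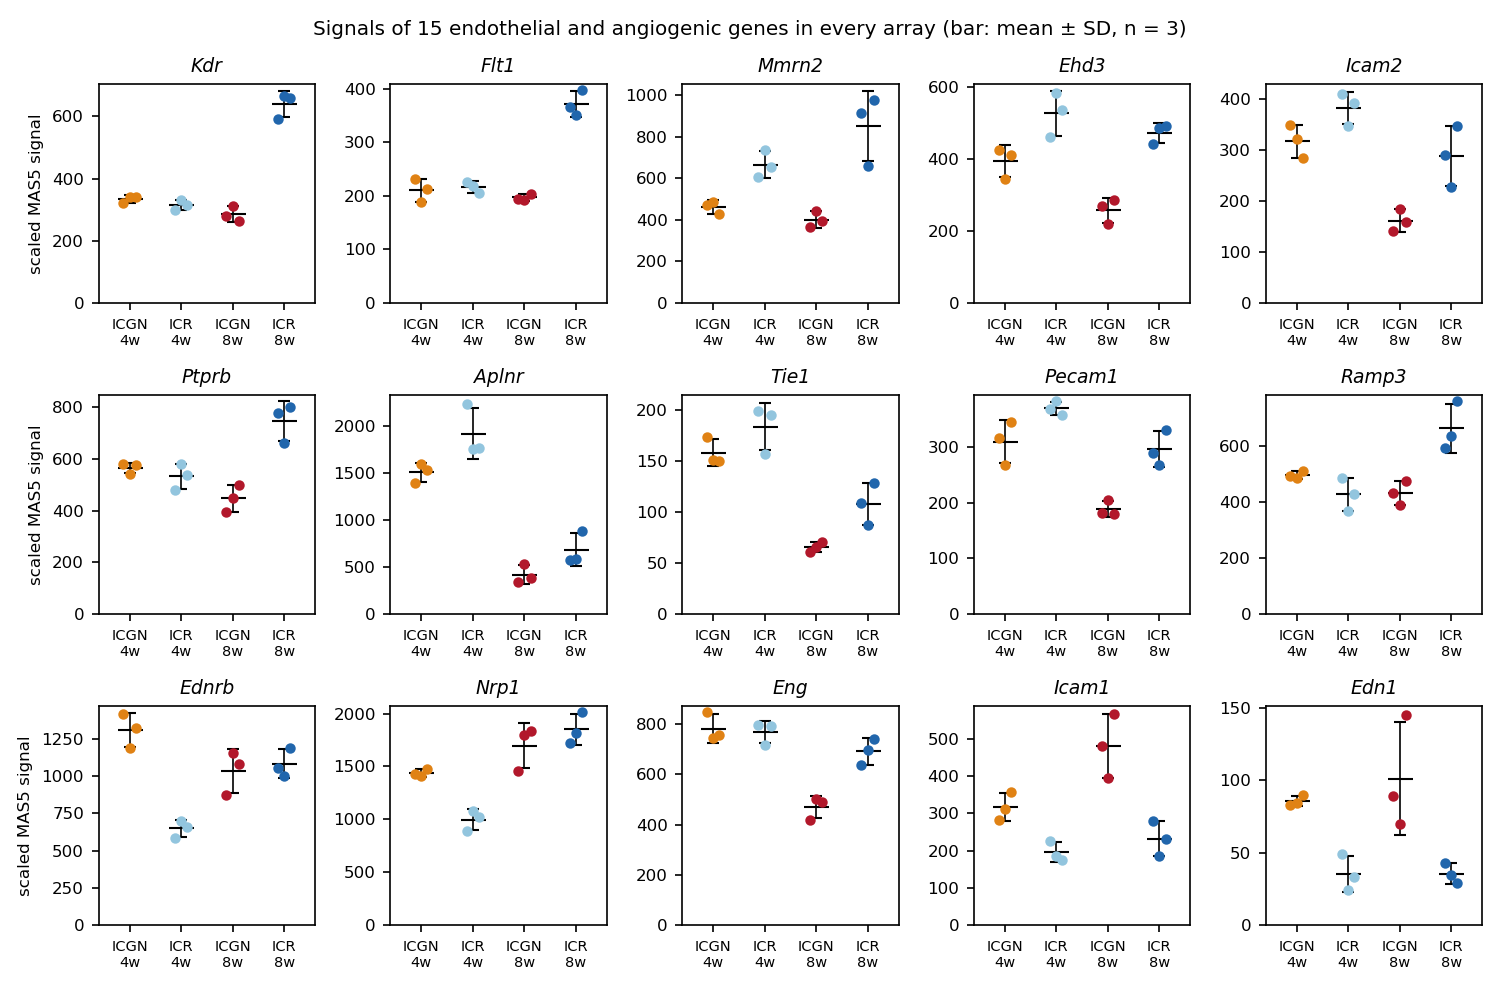
Scaled MAS5 signal (linear axis from 0) of 15 of the genes in each of the 12 arrays, with points for arrays and bars for the mean ± SD (n = 3) of ICGN and ICR cortex at 4 and 8 weeks (4w, 8w). Kdr and Flt1 stand apart in ICR cortex at 8 weeks (640 ± 41.9 and 372 ± 23.5), while Ednrb is lowest in ICR cortex at 4 weeks (648 ± 56.5) and Icam1 highest in ICGN cortex at 8 weeks (481 ± 86.0).

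In the angiopoietin system 2 of 5 genes were lower, against 26% of all tested genes. Ptprb encodes the endothelial phosphatase that removes phosphate from Tek. Its signals were 394, 451 and 499.8 in ICGN cortex, against 779.5, 659.8 and 803 in ICR cortex. The groups did not overlap (-0.54 ± 0.12, adjusted p = 5.1e-04), and both of its tested probe sets were called lower. Tie1, the relative of Tek that has no well-defined ligand of its own, had signals of 60.4, 65.3 and 70.4 in ICGN cortex, against 109, 87.1 and 129 in ICR cortex. All ICGN arrays lay below all ICR arrays (-0.45 ± 0.15, adjusted p = 0.0057).

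Tek was not called (-0.15 ± 0.14, adjusted p = 0.082), its arrays reading 434, 555 and 555 in ICGN cortex, against 737, 509.6 and 722 in ICR cortex, an overlap that came from ICR replicate 2. Without that replicate Tek was called lower (0.011). The ligand genes also missed the threshold. Angpt1, the activating ligand, had 208, 306 and 236 in ICGN cortex, against 335, 322 and 409 in ICR cortex (-0.32 ± 0.20, adjusted p = 0.064). Angpt2, the ligand that endothelial cells release and that can oppose Angpt1, had 132, 141 and 169 in ICGN cortex, against 115, 98.8 and 111 in ICR cortex (0.59 ± 0.16, adjusted p = 0.06). For Angpt1 all ICGN arrays lay below all ICR arrays, and for Angpt2 all lay above. Angpt2 was called higher under each of the 3 other scalings (adjusted p = 0.015, 0.035 and 0.0069). Angpt1 was called lower without ICGN replicate 2 at 8 weeks (0.036), without ICGN replicate 3 at 4 weeks (0.035) and with only the 8-week arrays (0.042).

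The promoter windows of 5 called genes are shown as examples. Kdr, Flt1 and Tie1 are receptors that were lower at 8 weeks, and Edn1 and Icam1 are the genes that were higher. They are not the 5 largest differences, since Mmrn2, Ehd3 and Icam2 differed more than Tie1. The sequences are RefSeq's for the mouse reference assembly GRCm38.p6, which is not the sequence of ICGN or ICR mice, and run 5′ to 3′ on the gene's strand over 300 bases. Kdr (minus strand, chr5:75978406-75978705), Flt1 (minus strand, chr5:147725962-147726261) and Tie1 (minus strand, chr4:118489800-118490099) have matches to GGAAG, the core that ETS factors such as Erg bind, in capitals on either strand. They hold 1, 3 and 7 matches.
Kdr: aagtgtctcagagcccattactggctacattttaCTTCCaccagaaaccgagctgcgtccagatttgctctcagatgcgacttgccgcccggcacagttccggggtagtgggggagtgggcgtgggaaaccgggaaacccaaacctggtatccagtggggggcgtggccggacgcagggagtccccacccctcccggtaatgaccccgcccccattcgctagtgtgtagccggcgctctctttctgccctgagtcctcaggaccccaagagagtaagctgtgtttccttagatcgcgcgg
Flt1: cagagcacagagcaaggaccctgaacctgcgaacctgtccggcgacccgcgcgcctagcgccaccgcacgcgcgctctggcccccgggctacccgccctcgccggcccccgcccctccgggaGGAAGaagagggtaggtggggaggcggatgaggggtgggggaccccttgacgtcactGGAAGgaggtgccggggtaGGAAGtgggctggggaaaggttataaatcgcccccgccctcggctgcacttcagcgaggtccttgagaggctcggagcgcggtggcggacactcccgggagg
Tie1: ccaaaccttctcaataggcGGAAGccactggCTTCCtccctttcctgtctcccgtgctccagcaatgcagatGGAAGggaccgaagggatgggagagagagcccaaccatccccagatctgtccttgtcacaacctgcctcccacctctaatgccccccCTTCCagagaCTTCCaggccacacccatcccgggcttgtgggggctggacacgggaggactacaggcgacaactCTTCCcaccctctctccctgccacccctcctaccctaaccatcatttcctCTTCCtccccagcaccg
Icam1 (plus strand, chr9:21015690-21015989) has 2 matches to GGNNNTTCC, a loose form of the site bound by the inflammatory factor NF-kB, and Edn1 (plus strand, chr13:42301226-42301525) has 1 match to AGATAA, which GATA factors bind, again in capitals on either strand.
Icam1: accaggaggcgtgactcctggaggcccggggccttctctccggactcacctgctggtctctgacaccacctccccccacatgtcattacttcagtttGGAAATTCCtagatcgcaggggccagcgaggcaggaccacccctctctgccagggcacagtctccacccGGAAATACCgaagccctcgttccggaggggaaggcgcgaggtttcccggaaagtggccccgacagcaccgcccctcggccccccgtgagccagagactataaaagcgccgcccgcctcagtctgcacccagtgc
Edn1: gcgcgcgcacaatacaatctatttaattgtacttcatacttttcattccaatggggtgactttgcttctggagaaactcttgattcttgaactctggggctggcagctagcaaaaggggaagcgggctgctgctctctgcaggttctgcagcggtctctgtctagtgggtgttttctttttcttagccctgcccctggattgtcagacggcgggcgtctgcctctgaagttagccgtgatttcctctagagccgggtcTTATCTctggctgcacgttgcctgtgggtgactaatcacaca

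These short letters are common. The promoter table held 27 windows for 23 of the 39 genes. GGAAG stood in 24 of these windows, against 71.4% of all 32851 windows of the same length. GGNNNTTCC stood in 8 of 27 against 18.5% of all, and AGATAA in 3 of 27 against 11.2%. A match describes letters and shows no binding. The letters of GGAAG can lie within a match to GGNNNTTCC, and each motif was counted on its own on both strands.

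Of the 8 junction and surface markers 6 were lower at 8 weeks, against 26% of all tested genes. Icam2, an adhesion molecule that endothelium carries at rest, had signals of 142, 186 and 159 in ICGN cortex, against 292, 228 and 347 in ICR cortex (-0.60 ± 0.15, adjusted p = 0.0013). Pecam1, the junction protein CD31, had 181, 205 and 180.0 in ICGN cortex, against 289, 267 and 331 in ICR cortex (-0.43 ± 0.12, adjusted p = 0.0017). In both genes the strains did not overlap. Esam, an adhesion molecule of endothelial tight junctions, had 333, 374 and 381 in ICGN cortex, against 514, 475 and 636 in ICR cortex (-0.37 ± 0.12, adjusted p = 0.0032). Eng, a co-receptor for TGF-beta family ligands, had 419, 503 and 488 in ICGN cortex, against 635, 697 and 742 in ICR cortex (-0.36 ± 0.12, adjusted p = 0.0022). The ICGN arrays were the lower ones in each of these 4 genes.

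Cdh5, the adherens junction cadherin of endothelium, had signals of 131, 136 and 136 in ICGN cortex, against 198, 188 and 203 in ICR cortex (-0.33 ± 0.17, adjusted p = 0.031). Emcn, the sialomucin endomucin, had 1076, 1419 and 1402 in ICGN cortex, against 1823, 1392 and 1863 in ICR cortex (-0.19 ± 0.14, adjusted p = 0.047). The Cdh5 arrays did not overlap between the strains, while in Emcn ICR replicate 2 lay below ICGN replicates 2 and 3. Leaving out 1 array of that age ended the Cdh5 call in 5 of 6 cases, the exception being ICR replicate 2 (adjusted p = 0.057 to 0.084). The Emcn call was lost on leaving out any 1 array of the 12 other than ICGN replicates 2 and 3 and ICR replicate 2 at 8 weeks (0.052 to 0.19). Cd34, a sialomucin shared with blood progenitors, was not called (0.06 ± 0.13, adjusted p = 0.49), nor was Mcam, which pericytes and smooth muscle also carry (0.76 ± 0.24, adjusted p = 0.071). Mcam had 72.8, 84.2 and 95.5 in ICGN cortex, against 65.2, 29.7 and 71.6 in ICR cortex, with all ICGN arrays above all ICR arrays. It was called higher on leaving out ICR replicate 1 or 3 of that age (0.049 and 0.036), and also with arrays centred on their tested-gene median and with the authors' scaling.

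Of the 7 genes grouped under glomerular and fenestrated endothelium 5 were lower, against 26% of all tested genes. Mmrn2 and Robo4 among them are genes of endothelium in general, so the count is not specific to such vessels. Mmrn2, a matrix glycoprotein of endothelium, had 366, 444 and 393 in ICGN cortex, against 912, 661 and 977 in ICR cortex (-0.86 ± 0.14, adjusted p = 1.0e-04). All 4 of its tested probe sets were called lower. Ehd3, an endocytic protein that in the kidney is mostly found in glomerular endothelium, had 269, 219 and 286 in ICGN cortex, against 442, 487 and 492 in ICR cortex (-0.67 ± 0.13, adjusted p = 2.7e-04), and both of its probe sets were called lower. Robo4, the roundabout receptor of endothelium, had 88.0, 114 and 107 in ICGN cortex, against 165, 138 and 179.5 in ICR cortex (-0.41 ± 0.14, adjusted p = 0.0057). In Mmrn2, Ehd3 and Robo4 the strains did not overlap, with ICGN the lower.

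Plvap, which builds the diaphragms of fenestrae and caveolae, had 819.7, 917 and 971 in ICGN cortex, against 1492, 1180.1 and 1341 in ICR cortex (-0.38 ± 0.13, adjusted p = 0.0034). Gpihbp1, which holds lipoprotein lipase on the capillary surface, had 389.8, 386 and 419 in ICGN cortex, against 529, 459 and 658 in ICR cortex (-0.25 ± 0.14, adjusted p = 0.022). Both were lower in each ICGN array. The Gpihbp1 call was lost on leaving out ICGN replicate 1 or 2 or ICR replicate 3 (0.058 to 0.12). Egfl7, a secreted factor of vessel tube formation, was not called (0.11 ± 0.13, adjusted p = 0.69) in any of its 4 tested probe sets, nor was Rasip1, which serves lumen formation (-0.17 ± 0.17, adjusted p = 0.12).

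Of the 2 transcription factors, Sox17, a factor of arterial endothelium, was lower, with 60.4, 63.8 and 63.6 in ICGN cortex, against 95.02, 95.4 and 83.2 in ICR cortex (-0.29 ± 0.16, adjusted p = 0.032). The arrays did not overlap, but the call was lost on leaving out any 1 array of that age other than ICR replicate 3 (0.053 to 0.084), and of its 2 tested probe sets 1 was called. Erg, an ETS factor that maintains endothelial identity, was not called (-0.02 ± 0.16, adjusted p = 0.34). Its arrays overlapped, reading 93.3, 120.0 and 139 in ICGN cortex, against 159, 119 and 131 in ICR cortex.

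The vasoactive genes went in both directions, with 4 of 8 lower and 1 higher, against 26% and 8.49% of all tested genes. Edn1 had signals of 89.0, 69.5 and 145 in ICGN cortex, against 42.9, 34.6 and 28.7 in ICR cortex, and ICGN replicate 3 was the highest of them. Still the lowest ICGN array exceeded the highest ICR array (1.41 ± 0.25, adjusted p = 0.0017), and the call held under every alternative in which the gene was tested. Ednrb, higher at 4 weeks, was not called at 8 weeks (0.11 ± 0.13, adjusted p = 0.7), where it had 869, 1155 and 1078 in ICGN cortex, against 1053, 1001 and 1190.2 in ICR cortex, overlapping values. Nos3, the nitric oxide synthase of endothelium, had 98.3, 114 and 129 in ICGN cortex, against 120.0, 192 and 181 in ICR cortex (-0.29 ± 0.16, adjusted p = 0.036). Its groups overlapped through ICR replicate 1, and the call was lost without ICGN replicate 1 or 2 or ICR replicate 2 or 3 (0.074 to 0.14).

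Aplnr, the apelin receptor, had 344, 531 and 379 in ICGN cortex, against 579, 584 and 887 in ICR cortex (-0.51 ± 0.18, adjusted p = 0.0085), with 1 of 2 tested probe sets called. Ramp3, which joins Calcrl to form an adrenomedullin receptor, had 430.1, 388 and 474 in ICGN cortex, against 589, 635 and 758 in ICR cortex (-0.42 ± 0.13, adjusted p = 0.0028). Its relative Ramp2 had 301, 295 and 349 in ICGN cortex, against 373, 449.6 and 427 in ICR cortex (-0.21 ± 0.12, adjusted p = 0.017). ICGN arrays lay below ICR arrays in all 3 genes. The Ramp2 call was lost without ICGN replicate 2 or ICR replicate 2 or 3 (0.055 to 0.066). Calcrl itself (-0.13 ± 0.24, adjusted p = 0.33) and the ligand gene Apln (-0.04 ± 0.16, adjusted p = 0.31) were not called.

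Of the 4 genes grouped under leukocyte and platelet adhesion Icam1 alone could be tested. The adhesion gene Icam2 was grouped with the junction and surface markers above, and was lower at 8 weeks. Icam1 was higher in ICGN at both ages. Its signals at 8 weeks were 482, 395 and 567 in ICGN cortex, against 280.3, 186 and 231 in ICR cortex. The groups did not overlap (1.20 ± 0.17, adjusted p = 3.6e-04), a 2.30-fold difference, and the call at 8 weeks held under every alternative run. Tubule cells and leukocytes can carry Icam1 as well. Of the 15 tested macrophage genes 14 were higher in ICGN at 8 weeks (93.3%, against 8.49% of all tested genes) and 0 lower, and the summed signal of the list was 8448 to 10717 in ICGN and 3843 to 5253 in ICR cortex. At 4 weeks 9 of 15 were higher (60%, against 1.6%) and 0 lower, and the summed signal was 4682 to 5448 in ICGN and 2796 to 3691 in ICR cortex. The part of these cells in the Icam1 signal was not tested.

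How many members were called lower at 8 weeks depended on how the arrays were scaled. With each array centred on its tested-gene median 14 of 35 were lower (40%, against 19.5% of all tested genes) and 4 higher. With quantile normalization 14 were lower (40% against 13.5%) and 3 higher, and with the authors' own scaling 12 were lower (34.3% against 12%) and 4 higher. Over all tested genes the split was 1052 higher and 3225 lower in the scaling used here. It was 1586 higher and 2421 lower, 1698 higher and 1669 lower, and 2222 higher and 1487 lower in these alternatives. The median of the 35 genes was -0.29, -0.30 and -0.29 there, relative to the median tested gene. Kdr, Flt1, Tie1, Ptprb, Pecam1, Esam, Icam2, Eng, Ehd3, Mmrn2, Robo4 and Ramp3, 12 of the 20, were called lower under every alternative in which they were tested (Tie1 and Robo4 did not enter the stricter filter). Cdh5, Emcn, Plvap, Gpihbp1, Sox17, Nos3, Ramp2 and Aplnr, the other 8, lost the call under at least 1 of the 3 scalings.

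**Figure D3:**
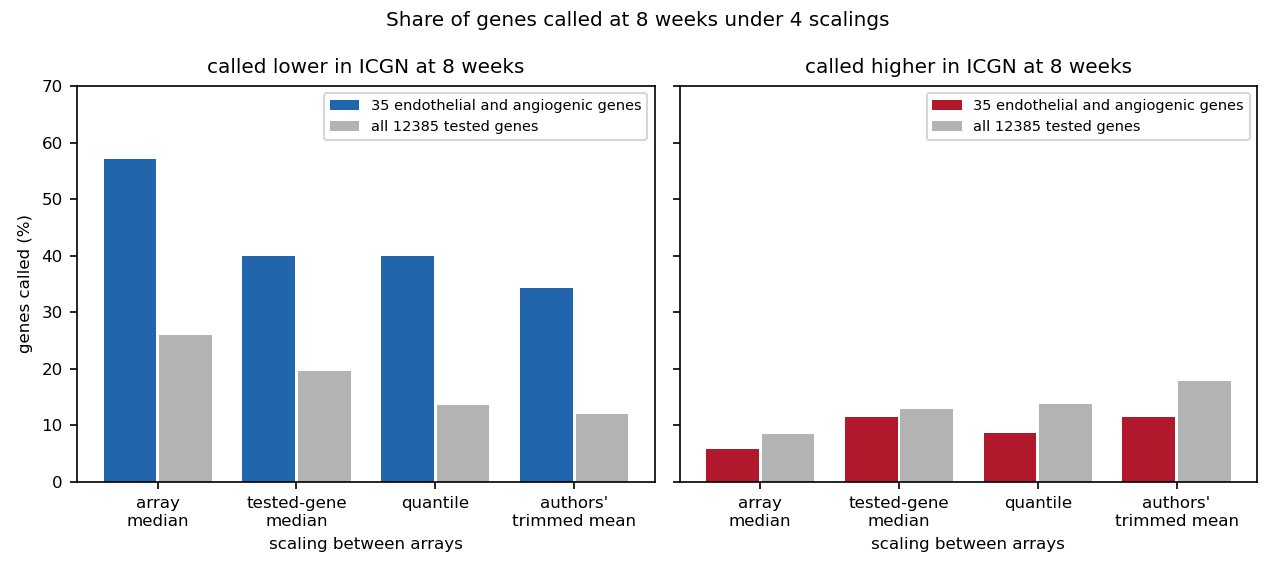
Percent of genes called lower (left) and higher (right) in ICGN at 8 weeks, for the 35 tested endothelial and angiogenic genes (coloured bars) and all 12385 tested genes (grey bars), under 4 scalings of the arrays. The share of the 35 genes called lower is 57.1% in the first scaling and 34.3% in the last, against 26% and 12% of all tested genes.

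Markers of other cells moved at 8 weeks too. Their shares stand beside 8.49% of all tested genes called higher and 26% called lower. Of 19 tested proximal tubule genes 16 were lower in ICGN (84.2%) and 0 higher, with a median of -0.43, and the summed signal of the list was 98816 to 126002 in ICGN and 162955 to 198539.9 in ICR cortex. Of 13 mesangial and pericyte genes 4 were higher (30.8%), namely Cspg4, Tagln, Pdgfrb and Rgs5, between 0.76 and 1.05. The smooth muscle myosin gene Myh11 was the 1 lower (7.69%), at -0.73. The sums of this list were 5919 to 6225 in ICGN and 4639 to 5297 in ICR cortex. Of 13 podocyte genes, markers of the cells that supply VEGF-A in the glomerulus, 3 were higher (23.1%) and 1 lower (7.69%). The higher ones were Nes (1.12), Cdkn1c (0.99) and Synpo (0.62), and the lower one was Actn4 (-0.15). The podocyte sums were 6381 to 7619.5 in ICGN and 6862 to 7352 in ICR cortex, which overlap. Of 5 tested platelet genes limma called 0, with 2 at an unadjusted p under 0.05. Of 5 lymphatic genes 1 was higher (20%), Pdpn (0.82), which podocytes express strongly, and 0 were lower. Both tested erythroid genes, Alas2 and Slc4a1, were lower (-1.08 and -0.27). The part of these cells in the members' values was not tested.

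Of 61 other endothelial genes on the array 55 were tested, and their shares of calls at 8 weeks did not exceed those of all tested genes. There were 14 lower (25.5%, against 26% of all tested genes) and 2 higher (3.64% against 8.49%), and the median was -0.08. At an unadjusted p under 0.05 there were 22 lower and 4 higher. The share of all tested genes at that threshold was not counted, so these numbers show no excess. The summed signal of the 61 genes was 24008 to 29608 in ICGN and 35572 to 38901 in ICR cortex, which do not overlap. Lowest were Igfbp3 (-1.27 ± 0.15, adjusted p = 1.3e-05), which binds insulin-like growth factors, Car4 (-1.02 ± 0.17, adjusted p = 1.0e-04), a membrane carbonic anhydrase that tubules also carry, and Ace (-0.92 ± 0.19, adjusted p = 4.4e-04), the angiotensin-converting enzyme, which is abundant in the proximal brush border. The highest was Vcam1 (3.63 ± 0.27, adjusted p = 1.5e-06), like Icam1 an inducible adhesion molecule for leukocytes, with a signal of 1706 ± 587 in ICGN and 142 ± 32.4 in ICR cortex (SD, n = 3). At 4 weeks 0 of the 55 were called by limma, and 10 had an unadjusted p under 0.05. From 4 to 8 weeks 17 of the 55 fell in ICGN cortex (30.9%, against 12.8% of all tested genes) and 2 rose (3.64% against 6.35%). In ICR cortex 5 fell (9.09% against 10.7%) and 8 rose (14.5% against 18%).

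The ligands and partners of the VEGF and angiopoietin receptors were mixed. Of 18 tested, 5 were higher and 4 lower at 8 weeks (27.8% against 8.49%, and 22.2% against 26%). Vegfa, the podocyte-derived ligand of Kdr and Flt1 that tubules make as well, is named after its values were seen. It was lower, with 494 ± 20.9 in ICGN and 849 ± 92.3 in ICR cortex (log2 fold change -0.58 ± 0.12, adjusted p = 3.5e-04). Higher were Col18a1, the collagen that yields the angiogenesis inhibitor endostatin (1.46 ± 0.12, adjusted p = 4.1e-06), Angptl4 (1.31 ± 0.32, adjusted p = 0.014), which inhibits lipoprotein lipase, Arnt (1.17 ± 0.23, adjusted p = 0.0048), the partner subunit of hypoxia-inducible factors, and Thbs1, a matrix protein that inhibits angiogenesis (1.09 ± 0.16, adjusted p = 6.2e-04). Col18a1 was the 1 gene of this list called at 4 weeks, also higher (0.49 ± 0.12, adjusted p = 0.042). Of 7 tested partners of the adrenomedullin, endothelin and apelin members limma called 0 at either age, and at an unadjusted p under 0.05 there were 2 at 4 weeks and 1 at 8 weeks.

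The difference between the strain comparisons asks whether the gap between ICGN and ICR changed with age. It was called in 7 of 35 genes (20%), all with a more negative value at 8 weeks, against 5.68% of all tested genes, and in 0 genes in the other direction (also 0 at an unadjusted p under 0.05), against 2.21% (7.9% either way). Kdr had the largest difference (-1.04 ± 0.15, adjusted p = 0.0011), then Ednrb (-0.90 ± 0.18, adjusted p = 0.0048), Flt1 (-0.66 ± 0.16, adjusted p = 0.0085), Ramp3 (-0.65 ± 0.19, adjusted p = 0.017) and Ptprb (-0.64 ± 0.17, adjusted p = 0.014). The calls of these 5 held under every alternative run. Nrp1 (-0.49 ± 0.17, adjusted p = 0.031) and Eng (-0.40 ± 0.16, adjusted p = 0.043) were also called, but the Nrp1 call was lost on leaving out any 1 ICGN array at 4 weeks, ICGN replicate 1 at 8 weeks, ICR replicate 1 at 4 weeks or ICR replicate 3 at 8 weeks (0.058 to 0.074). With the mean of its probe sets Nrp1 stood at -0.19 (adjusted p = 0.17), and its call was also lost with quantile normalization (0.074) and with no mean-variance trend (0.052). The Eng call was lost on leaving out any 1 array other than ICGN replicate 3 and ICR replicate 1 at 8 weeks (0.051 to 0.1), and also with quantile normalization (adjusted p = 0.069), the authors' scaling (0.082), the mean of its probe sets (0.077) and no trend (0.063).

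The age comparisons, 8 weeks over 4 weeks within a strain, rest on arrays whose deposited scaling targets differ between the ages, so age and that target cannot be told apart. They share arrays with the strain comparisons, and the values below stand beside those above without adding to them. In ICR cortex 8 of 35 genes rose (22.9%, against 18% of all tested genes) and 6 fell (17.1% against 10.7%). In ICGN cortex 1 rose (2.86% against 6.35%) and 12 fell (34.3% against 12.8%). The balance in ICR turned with the scaling. There 8 rose and 9 fell with arrays centred on their tested-gene median (22.9% against 18.7%, and 25.7% against 14.4%). With quantile normalization 7 rose and 10 fell (20% against 13.9%, and 28.6% against 16.9%), and with the authors' scaling brought to 1 target 7 rose and 12 fell (20% against 12.5%, and 34.3% against 20.5%). In ICGN 3 rose under each of these (8.57%, against 11.1%, 10.5% and 9.53% of all tested genes). There 12, 14 and 14 fell (34.3%, 40% and 40%, against 11.6%, 15.7% and 14.7%). The median of the 35 genes was -0.26 in ICGN and -0.08 in ICR cortex.

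Kdr in ICR cortex had 592, 667 and 661 at 8 weeks, against 300.1, 330.2 and 315 at 4 weeks, and rose by 0.91 on the log2 scale (adjusted p = 1.2e-05). In ICGN cortex it had 281, 313 and 265 at 8 weeks, against 320.2, 341 and 341 at 4 weeks, and was not called (-0.14 ± 0.11, adjusted p = 0.17). Thus the ICR arrays of 8 weeks stood clear above the other 9 arrays. The brightest Flt1 probe set showed the same order. It stood at 0.66 ± 0.11, adjusted p = 2.3e-04 in ICR and at -0.01 ± 0.11, adjusted p = 0.64 in ICGN cortex. A dimmer Flt1 probe set read higher at 8 weeks in ICGN too (94.6 to 110 against 56.9 to 81.0). There the ICR arrays of 8 weeks were still highest (130 to 167). In the other tested Flt1 probe sets those arrays were not clear above the rest. In the brighter of these ICGN replicate 3 at 8 weeks (218) exceeded ICR replicate 2 (206). In the dimmer ICGN replicate 2 at 4 weeks (99.8) exceeded all ICR arrays of 8 weeks (87.6 to 89.6). Ptprb stood at -0.26 in ICGN (not called) and 0.39 in ICR, and Ramp3 at -0.12 (not called) and 0.54.

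Ednrb in ICR cortex had 1053, 1001 and 1190.2 at 8 weeks, against 586, 697 and 661 at 4 weeks (0.64 ± 0.13, adjusted p = 7.7e-04). In ICGN cortex it had 869, 1155 and 1078 at 8 weeks, against 1417, 1186 and 1322 at 4 weeks (-0.26 ± 0.13, adjusted p = 0.077, not called). The low values were therefore those of ICR cortex at 4 weeks. Nrp1 rose in ICR cortex (0.80 ± 0.12, adjusted p = 9.1e-05) and was not called in ICGN (0.31 ± 0.12, adjusted p = 0.2). Gpihbp1 (0.50) and Plvap (0.36) completed the 8 that rose in ICR, at 0.02 and 0.22 in ICGN (neither called). The Plvap rise was lost with quantile normalization, with the authors' scaling brought to 1 target, and on leaving out ICR replicate 3 at 4 weeks or ICR replicate 1 at 8 weeks (0.065 to 0.069). Under the other scalings Nrp1 also rose in ICGN, as it did with the mean of its probe sets (0.50, adjusted p = 0.0081). Ptprb and Ednrb fell in ICGN under 2 of the 3 scalings.

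**Figure D4:**
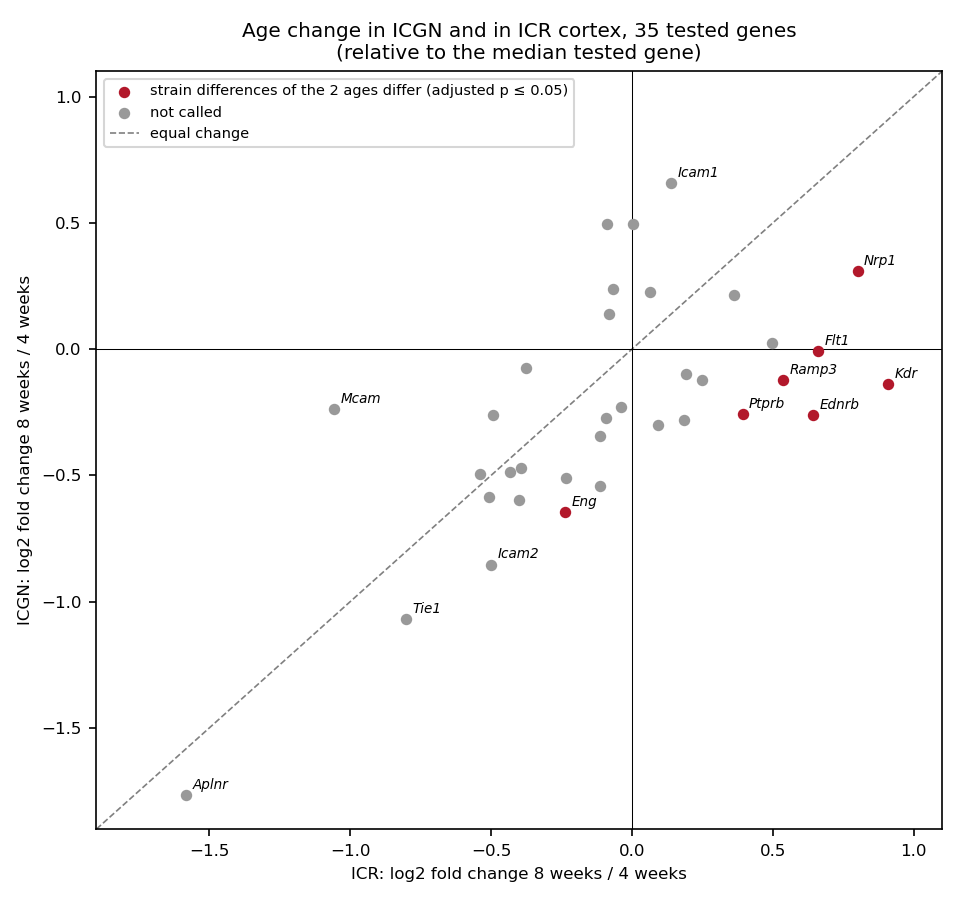
Log2 fold change from 4 to 8 weeks of the 35 tested genes in ICGN cortex (vertical) and in ICR cortex (horizontal), relative to the median tested gene of each strain; the dashed line marks equal change and red marks genes whose strain difference changed with age. Kdr lies at -0.14 in ICGN and 0.91 in ICR, and Aplnr fell in both (-1.77 and -1.58).

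Aplnr, Tie1, Cd34, Egfl7 and Ramp2 fell with age in both strains. Aplnr had 344, 531 and 379 at 8 weeks, against 1394, 1593 and 1531 at 4 weeks in ICGN cortex (-1.77 ± 0.18, adjusted p = 1.5e-05), and 579, 584 and 887 at 8 weeks, against 2229, 1759 and 1769 at 4 weeks in ICR cortex (-1.58 ± 0.18, adjusted p = 3.0e-05). Tie1 averaged 65.4 ± 4.97 at 8 weeks and 158 ± 13.1 at 4 weeks in ICGN cortex (-1.07 ± 0.15, adjusted p = 1.9e-04), and 108 ± 20.7 and 184 ± 23.2 at the same ages in ICR cortex (-0.80 ± 0.15, adjusted p = 0.0029; SD, n = 3 each). In both genes all 8-week arrays of a strain lay below all of its 4-week arrays. Cd34 stood at -0.50 in ICGN and -0.54 in ICR, Egfl7 at -0.58 and -0.51, and Ramp2 at -0.49 and -0.43. In ICR each of these 3 calls was lost on leaving out 1 of several ICR arrays (adjusted p = 0.052 to 0.093 for Cd34, 0.053 to 0.11 for Egfl7 and 0.065 to 0.13 for Ramp2).

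A further 7 genes fell with age in ICGN cortex and were not called in ICR cortex. They were Icam2 (-0.85 in ICGN and -0.50 in ICR), Eng (-0.64 and -0.24), Pecam1 (-0.60 and -0.40), Sox17 (-0.54 and -0.11), Ehd3 (-0.51 and -0.23), Rasip1 (-0.47 and -0.39) and Esam (-0.35 and -0.11). Of these 7 the difference between the strains' age changes was called in Eng alone. The fall of Rasip1 in ICGN was lost with no filter and on leaving out any 1 ICGN array other than replicate 3 at 4 weeks (adjusted p = 0.053 to 0.15). That of Esam was lost without ICGN replicate 1 or 2 of either age (0.054 to 0.091), and that of Sox17 without ICGN replicate 1 or 2 at 4 weeks and with the stricter filter (0.051 to 0.055). Eng stood at -0.18 in ICGN with the mean of its probe sets and was not called (adjusted p = 0.16). Its other tested probe set read higher at 8 weeks than at 4 weeks in both strains. That probe set had 321 to 397 against 286 to 311 in ICGN cortex, and 435 to 512 against 213 to 350 in ICR cortex. Icam2, Pecam1 and Eng were called lower with age in ICR as well under 2 or more of the other scalings. Mcam fell in ICR (-1.06 ± 0.24, adjusted p = 0.0067) and was not called in ICGN (-0.24 ± 0.24, adjusted p = 0.38), and the difference between the strains was not called (adjusted p = 0.23). Icam1 was the 1 gene that rose with age in ICGN (0.66 ± 0.17, adjusted p = 0.023), a call that was lost on leaving out ICGN replicate 1 or 2 at 4 weeks or ICGN replicate 1 or 3 at 8 weeks (0.057 to 0.098). Angpt2 was called higher with age in ICGN under each of the 3 other scalings (adjusted p = 0.028 to 0.046) and without ICGN replicate 1 at 4 weeks (0.049). In ICR Icam1 was not called (0.14 ± 0.17, adjusted p = 0.33), and neither was the difference (0.35).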

How the data were processed

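Biotin-labelled cRNA from total RNA of renal cortex was measured on the Affymetrix arrays, per the labels' protocols. The authors deposited 1 signal intensity on a linear scale for each probe set and array. Per the submitters' processing notes these came from MAS5 (release: not given in the sources used here). After trimming, the mean (2% cut at each end) was 100 in the deposited 4-week arrays and 500 in the 8-week arrays. Of 45101 probe sets, 64 of them controls, 34958 had 1 symbol in the platform annotation, 932 several and 9211 none.

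Arrays were brought to a median of 40.4 in R 4.3.3, and log2(signal + 11) was modelled with limma 3.58.1. The offset of 11 is the rounded 25th percentile of the scaled table. Such fold changes understate those of dim genes. Probe sets above their array's median in at least 3 of 12 arrays were kept (21826 with 1 symbol), and the brightest stood for its gene, those ending in _x_at coming last. A linear model with 4 group means (8 residual degrees of freedom) and a mean-variance trend gave 5 contrasts, adjusted by Benjamini-Hochberg over 12385 genes. The script was tested on simulated data. The number of arrays, 3 a group, limits the precision. Counts at an unadjusted p under 0.05 were made for members and lists alone. No share of all tested genes stands beside them.

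The members and lists were chosen with earlier results of these data known. Every member is named. Array signals are given for members called in a strain comparison or in its change with age, and for some beside them in the same group; of each list the counts and up to 4 called genes with the largest change. Alternatives were the offset, the scaling, the filter, the mean of probe sets, no trend, a replicate block, the arrays of 1 age alone, and leaving out each array. For the age comparisons the authors' scaling was brought to 1 target for both ages, which was chosen after seeing the data.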

Additional observations from a re-analysis of the deposited data

Results flagged for a closer look

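In 7 genes the strain effect differed between the ages by a test of the difference itself, that is, the ICGN over ICR log2 fold change at 8 weeks minus that at 4 weeks. The values were -1.04 for Kdr, -0.90 for Ednrb, -0.66 for Flt1, -0.65 for Ramp3, -0.64 for Ptprb, -0.49 for Nrp1 and -0.40 for Eng. For Kdr, Flt1, Ramp3, Ptprb and Eng the strain effect was near 0 or above it at 4 weeks (0.10, -0.02, 0.24, 0.11 and 0.04) and below 0 at 8 weeks (-0.95, -0.69, -0.42, -0.54 and -0.36). For Ednrb and Nrp1 it was above 0 at 4 weeks (1.02 and 0.55) and near 0 at 8 weeks (0.11 and 0.05).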

How the results depend on the processing

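No member changed the direction of a call under any alternative run. The number of members called in the strain comparison at 4 weeks was 4 (against 2.99% of all tested genes), it was 2 without the filter (1.5%), and leaving out 1 array gave 1 to 5 (1.4% to 3.38%). At 8 weeks it was 22 (34.5%), and 17 to 22 on leaving out 1 array (24.5% to 34.3%). For the difference between the strain comparisons it was 7 (7.9%) and 5 to 9 (3.83% to 8.57%), for the age comparison in ICGN 13 (19.1%) and 9 to 13 (11.9% to 19.9%), and for that in ICR 14 (28.7%) and 11 to 15 (21% to 30.8%). With the replicate block the 5 counts were 4, 23, 8, 13 and 14 (3.17%, 36.6%, 10.7%, 20.9% and 31.1% of all tested genes). The block added Angpt1, lower at 8 weeks (adjusted p = 0.041), and Gpihbp1 in the difference (adjusted p = 0.033). It is not clear that the numbers pair the arrays: deviations of same-numbered arrays correlated with r from -0.09 to 0.10 over 6 pairs. The authors' scaling brought to 1 target gave 17 members in the age comparison of ICGN (3 rose and 14 fell, against 9.53% and 14.7% of all tested genes) and 19 in that of ICR (7 rose and 12 fell, against 12.5% and 20.5%). At 8 weeks 16 to 18 members were called under the 3 other scalings (against 27.2% to 32.4% of all tested genes). With the stricter filter 16 of 25 tested were called (against 46.1%), and 60% were lower, against 38.7%. Without the filter 18 of 39 were called (21.6%), and with only the arrays of that age 18 of 35 (26.7%). Over the alternatives, the members called at first lost the call in 20 of 91 recomputed values at 4 weeks (22%), 63 of 501 at 8 weeks (12.6%), 23 of 154 for the difference (14.9%), and 18 of 284 and 16 of 306 in the age comparisons of ICGN and ICR (6.34% and 5.23%). Dim genes are the least certain, since the offset is a larger part of their values.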
